A study of Mus musculus with 35 samples.

Results

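Forebrain microglia of 9-week-old mice that lack Csf1 in the neural lineage (NesCre Csf1fl/fl, 4 libraries) are compared here with those of Csf1fl/fl controls (3 libraries), over all 9424 genes of the forebrain table, of 10964 gene names in all the tables of the series. No gene passed the test, in which same-numbered libraries were not paired. The CSF1 receptor gene Csf1r and most other genes of microglial identity lay within narrow limits of the control level. The smallest p-values went to the transcript Erdr1 and the pyrophosphatase Enpp1, both with higher levels in the mutants, and to clusterin, Clu, with lower levels. Among abundant genes, the lysosomal proteases Ctsd, Ctsb and Ctsz had log2 changes of 0.21, 0.17 and 0.26. The purinergic receptor P2ry12 had one of -0.27. In each the groups did not overlap, which held for 5.13% of all genes, and none passed the threshold.

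Microglia are the resident macrophages of the brain. They depend for survival and renewal on the receptor tyrosine kinase CSF1R, which signals through the phosphatidylinositol 3-kinase and mitogen-activated protein kinase routes. The receptor has a pair of ligands, CSF1 and IL-34. In the mouse brain IL-34 is made mainly by neurons of the forebrain, while microglia of the cerebellum rely more on CSF1. The comparison asks what the loss of CSF1 from neural cells does to the transcriptome of forebrain microglia in the adult.

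Primary microglia were isolated by fluorescence-activated sorting and sequenced as an ultra-low-input bulk RNA preparation. All mice of the comparison, controls included, carry a floxed Csf1 gene on both chromosomes, and the mutants also carry Nestin-Cre. Nestin-Cre acts in neural progenitors and the neurons and glia they give rise to. It does not act in microglia, which come from the yolk sac, so Csf1 made by the microglia themselves or by vessels is not removed. A Cre-only control was not analysed here. The design text calls the samples biological replicates and says no more about the animals. For comparison, the series also holds Csf1fl/fl and NesCre Csf1fl/fl microglia of the 9-week cerebellum (3 and 3 libraries) and of the forebrain at postnatal day 8 (P8; 3 and 3), and forebrain microglia of 9-week Il34wt/wt and Il34Lacz/Lacz mice (3 and 3), in which a LacZ insertion disrupts Il34. The series has 35 libraries in all.

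The 7 libraries held 1385403 to 1742629 reads in the genes of the table. All values below are normalised reads per gene, given for control libraries 1 to 3 and then for NesCre libraries 1 to 4. Pairs of libraries correlated across genes at 0.917 to 0.959 (Pearson, log2 scale). Control 2 stood somewhat apart: its mean correlation with the other 6 libraries was 0.929, against 0.948 to 0.953 for the others. The change without control 2 is given for Csf1 and for those of the 20 leading genes in which it differed by over 1.5 times, and list medians are given with their range over single libraries left out. All 10 microglial markers were in the table. By reads per kilobase of exon, P2ry12 ranked 7, Csf1r ranked 9 and Tmem119 ranked 12 of 8994 genes with an annotated length, while the transcription factor Sall1 was the lowest of the 10 markers at rank 431. The highest gene on that scale was Cst3, which encodes the protease inhibitor cystatin C.

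Csf1 itself cannot check the deletion, because Cre acts in other cells than those sorted. Csf1 was read at 42.6, 24.995 and 32.5 in controls and at 44.5, 42.7, 38.5 and 42.3 in mutants. The groups overlapped, and the lowest library was a control (log2 change 0.35 ± 0.25 SE, 95% interval -0.18 to 0.88). Without control 2, the lowest library, the change was 0.17, and without control 1 it was 0.54. Il34 is not among the genes of the table.

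Differences were fitted with limma on log2(value + 1), which slightly understates the change of low genes, and a gene was called at a Benjamini-Hochberg adjusted p under 0.05. Limma called 0 of 9424 genes (0.0%), and the smallest adjusted p was 0.429. At an unadjusted p under 0.05 stood 399 genes (4.23%), of which 203 (2.15%) had a higher mean in mutants and 196 (2.08%) a lower one. No value of the 4 mutants overlapped with the 3 controls in 483 genes (5.13%): 238 (2.53%) with all mutants above and 245 (2.6%) with all below. Changes were positive in 50.5% of all genes and negative in 49.5%. The median log2 change was 0.00, and the middle 90% of genes lay between -0.44 and 0.43. With same-numbered libraries fitted as blocks, limma called 14 genes, as given at the end. NesCre 4, which has no control of its number, adds nothing to the changes of that fit. Without control 2, without control 3 or without NesCre 1, limma called 1 gene each time, which was Clu, Enpp1 and Erdr1 in that order. A gene entered this table when it was above 10 in every library of 1 or both groups. Of the 9424 genes, 8664 met this in both groups, 336 in the NesCre group only and 424 in the controls only. A gene that entered through 1 group only was listed because it was high there, so its difference is not independent of its being in the table. Clu entered through the controls only and Enpp1 through the NesCre group only, and those calls are given as a description.

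The interval of each change says how large a change these libraries could have missed. For 8071 genes (85.6%) the 95% interval lay wholly within a 2-fold change in either direction, and for 3874 (41.1%) within 1.5-fold. The precision followed the level. Of 3951 genes with a mean under 50 normalised reads, 68.3% were bounded within 2-fold and 5.09% within 1.5-fold. Between 50 and 200 normalised reads these shares were 97.6% and 58.6% of 4157 genes, and between 200 and 1000, 1171 of 1171 genes were bounded within 2-fold and 93.6% within 1.5-fold. Of the 145 genes at 1000 or more, 98.6% were bounded within 1.5-fold. All 48 genes with a fitted change of over 2-fold had a mean under 50, and 46 of the 48 had entered the table through 1 group only.

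**Figure D1:**
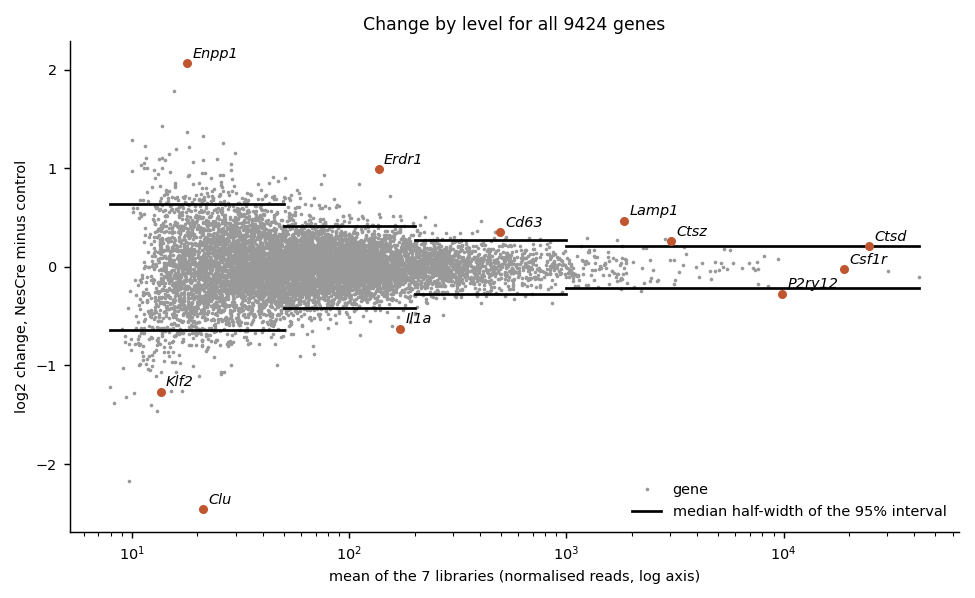
Each point is 1 of the 9424 genes, with its mean over the 7 libraries in normalised reads on a log axis and its log2 change, NesCre minus control. The black lines give the median half-width of the 95% interval in 4 classes of level, from 0.64 under 50 reads to 0.21 at 1000 or more, and the named genes in colour include Clu at -2.46 and Csf1r at -0.03.

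The receptor and its pathway were measured with high precision. Csf1r was at 18559.5, 19984 and 19231 in controls and at 18286, 19432, 17895 and 20127 in mutants. The groups overlapped, with mutants on both sides of the control range, and the log2 change of -0.03 ± 0.09 SE had a 95% interval of -0.21 to 0.15. Of 41 listed genes of CSF1R ligands, receptor and signalling, 35 were in the table, 17 with a positive and 18 with a negative change, and limma called 0. The median log2 change of these 35 genes was 0.00 (-0.04 to 0.04 over single libraries left out, the range given in brackets beside each list median), as over all genes, and the interval of all 35 lay within 2-fold. The adaptor gene Tyrobp, whose protein carries signals of several myeloid receptors, had a log2 change of 0.10, the kinase Lyn one of 0.05 and the receptor Trem2 one of -0.01 (log2). The transcription factor gene Etv5, which responds to mitogen-activated protein kinase signalling, had the smallest unadjusted p of the list. Etv5 was at 464, 394 and 533 in controls and at 643, 546, 610.2 and 467 in mutants, and NesCre 4 lay within the control range (0.29 ± 0.13 SE, adjusted p = 0.988, limma).

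Genes of survival and of division, the processes that CSF1R signalling sustains, gave 0 calls. Of 20 listed survival and apoptosis genes, 17 were in the table, 7 with a positive and 10 with a negative change (median -0.08; -0.11 to 0.00). Bcl2l1, which encodes the anti-apoptotic BCL-XL, was at 339, 307 and 363 in controls and 319, 328, 368 and 388 in mutants, and the ranges overlapped. Bcl2 had the smallest p of this list, at 23.9, 34.4 and 34.3 in controls and 13.5, 27.5, 23.5 and 10.8 in mutants, also with overlap (-0.76 ± 0.34 SE). Of 24 cell cycle genes, 15 were in the table, 9 positive and 6 negative (median 0.05; -0.04 to 0.12). The replication helicase subunit Mcm7 was at 30.2, 29.3 and 32.5 in controls and 45.6, 56.9, 32.9 and 43.9 in mutants, all above the controls, and the kinase Cdk2 likewise at 35.3, 35.3 and 38.03 in controls and 41.4, 64.99, 47.8 and 52.2 in mutants. Their log2 changes of 0.51 and 0.48 did not pass the test (adjusted p = 0.988, limma). These were the 2 of the 15 genes (13.3%) with all mutants above, against 2.53% of all genes. For Mcm7, NesCre 3 and control 3 almost met.

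Homeostatic genes, the set that marks resting microglia, were almost all bounded within narrow limits. Of 33 listed genes, 32 were in the table, 11 with a positive and 21 with a negative log2 change, and limma called 0. The median was -0.03 (-0.07 to -0.02). For 31 of the 32 the 95% interval lay within 1.5-fold. Tmem119, a surface protein of microglia, was at 7209, 5879 and 6329 in controls and 6890.2, 6187, 6146 and 6423 in mutants, all within the control range (-0.01 ± 0.09 SE). Sall1, which maintains microglial identity, had a log2 change of -0.12 ± 0.10, the lectin Siglech one of -0.14 ± 0.14 and the receptor Gpr34 one of -0.12 ± 0.09 (log2, SE).

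P2ry12, the receptor for adenosine diphosphate that guides microglial processes to sites of injury, had the smallest p of this list. It was at 9933, 11966 and 10788 in controls and at 8197, 8773, 9315 and 9762 in mutants. Every mutant lay below every control, with 9762 in the highest mutant against 9933 in the lowest control, so the gap was small. The log2 change was -0.27 ± 0.09 SE with a 95% interval of -0.47 to -0.08 (adjusted p = 0.988, limma). The gene lies at chr3:59216272-59262871 (mm10, minus strand). Its neighbour P2ry13 had a log2 change of -0.14 ± 0.11, with overlapping groups. Of 12 listed purinergic and adenosine genes, 9 were in the table, 4 positive and 5 negative (median -0.04; -0.10 to 0.01). Gas6, a ligand of the phagocytic receptors AXL and MERTK, was the homeostatic gene with all mutants above the controls, at 436, 445 and 396 in controls and 506, 481, 479 and 471 in mutants (0.19).

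Of 22 transcription factor genes of microglial identity, 20 were in the table, 9 positive and 11 negative (median -0.01; -0.05 to 0.03). Irf8 had a log2 change of 0.03 ± 0.10, Mef2c one of -0.02 ± 0.10 and Mef2a one of 0.00 ± 0.13, all with intervals inside 1.5-fold. The member that stood apart was Klf2, a Krüppel-like factor tied to quiescence in leukocytes, described below.

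Among the 10 genes with the smallest p and a higher mean in mutants, all 10 had every mutant above every control, against 2.53% of all genes. The 10 were picked by p in these same libraries, so their separation is a description. Of these 10, Enpp1, Zfp956, Zfp661, Lsm11 and Chml entered the table through the NesCre group only. Erdr1 was at 106, 79.9 and 72.3 in controls and at 113, 194, 184 and 208 in mutants. NesCre 1 lay close to control 1, and the other 3 mutants far above all controls (0.99 ± 0.20 SE, adjusted p = 0.429, limma). Erdr1 lies in the pseudoautosomal region of the sex chromosomes, which is poorly assembled and repetitive, so the assignment of its reads is uncertain. Enpp1, at chr10:24637914-24712159 (mm10, minus strand), encodes an ectoenzyme that splits extracellular nucleotides and releases pyrophosphate. It was at 2.17, 3.53 and 16.8 in controls and at 26.97, 24.4, 22.6 and 29.04 in mutants. Controls 1 and 2 were very low, and control 3 lay closer to the mutants (2.07 ± 0.46 SE, adjusted p = 0.668, limma). Without control 3, limma gave Enpp1 a log2 change of 2.81 and an adjusted p of 0.0144, but the gene was listed because it was above 10 in the mutants, so this value is a description.

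The other 8 genes of this group had an adjusted p of 0.988 (limma). Rab11fip5, an effector of the recycling endosome GTPase RAB11, was at 159.7, 95.4 and 87.98 in controls and 211, 177, 175 and 170.4 in mutants (0.72 ± 0.19 SE). Control 1 lay close to the lowest mutants and the other 2 controls far below. The translation initiation factor subunit Eif3b was at 42.6, 27.6 and 26.0 in controls and 60.03, 49.8, 68.4 and 56.3 in mutants (0.88), and the membrane protein gene Gpr180 at 65.4, 31.9 and 52.8 in controls and 119, 66.0, 128 and 72.9 in mutants (0.93). For Gpr180 the highest control and the lowest mutant almost met. The zinc finger genes Zfp956 (1.26) and Zfp661 (1.78), Mrps36 (1.10), the histone pre-mRNA processing gene Lsm11 (1.22) and the RAB escort protein gene Chml (1.04) were all at under 50 normalised reads in every library. Zfp661 was at 12.5, 0.96 and 9.35 in controls, and without control 2 its change was 0.92 and that of Chml 0.66.

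Clu had the smallest p among genes with a lower mean in mutants. Clusterin is a secreted chaperone and apolipoprotein that astrocytes make in large amounts. Clu was at 56.1, 12.1 and 56.5 in controls and at 3.20, 12.3, 5.71 and 3.41 in mutants. Controls 1 and 3 stood far above all mutants, while control 2 lay at the level of NesCre 2, so the groups overlapped. The log2 change was -2.46 ± 0.50 SE (adjusted p = 0.429, limma), and without control 2 it was -3.17 with an adjusted p of 0.00224. Clu was listed because it was above 10 in all 3 controls, so these values are a description. The gene lies at chr14:65968483-65981547 (mm10, plus strand). In these bulk samples, fewer cells of a type and less RNA per cell cannot be told apart. Of 19 astrocyte markers 7 were in the table, and Gfap, Aqp4 and Aldh1l1 were not among them. Without Glul and Slc1a3, which these microglial libraries hold at higher levels, the 5 others, Clu among them, summed to 116 to 217 normalised reads in controls and 91.5 to 246 in mutants. Their part in the Clu values was not tested.

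Of the other 9 genes with a lower mean, 8 had every mutant below every control, against 2.6% of all genes. They too were picked by p in these same libraries, so their separation is a description. Each of the 9 had an adjusted p of 0.988 (limma). Of all 10 genes with a lower mean, Clu, Dyrk1b, Klf2 and Zbtb33 entered the table through the controls only. Cysltr1, a receptor for cysteinyl leukotrienes, was at 184, 234 and 169 in controls and 109, 136, 142 and 124 in mutants (-0.60 ± 0.16 SE). Il1a, which encodes the cytokine interleukin-1α, was at 172, 294 and 183 in controls and 111, 129, 139 and 171 in mutants (-0.63 ± 0.19 SE). The highest mutant was just below the lowest control, and control 2 was well above all other libraries. Without control 2 the change of Il1a was -0.39. Il7r, the interleukin-7 receptor chain, was at 83.01, 114 and 82.4 in controls and 35.2, 42.7, 68.4 and 57.98 in mutants (-0.88 ± 0.24 SE). Siglec5, a receptor for sialic acids, was at 60.2, 113 and 70.4 in controls and 27.999, 39.6, 41.3 and 62.9 in mutants (-0.91), with NesCre 4 above control 1.

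Klf2 was at 19.8, 19.8 and 22.3 in controls and 8.37, 7.20, 11.3 and 5.89 in mutants (-1.27 ± 0.35 SE). The 3 controls lay close together, and the highest mutant, at 11.3, lay well below the lowest control, at 19.8. The kinase gene Dyrk1b showed a like separation at 17.7, 23.3 and 21.4 in controls and 9.40, 7.20, 7.59 and 4.23 in mutants (-1.46). Leupaxin, Lpxn, a focal adhesion protein of blood cells, was at 229, 271 and 201 in controls and 142, 161, 147 and 182 in mutants (-0.56). Casp8ap2 (-0.99), which takes part in histone pre-mRNA processing, and Zbtb33 (-1.11), which encodes the methyl-DNA binding protein Kaiso, completed the 10.

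**Figure D2:**
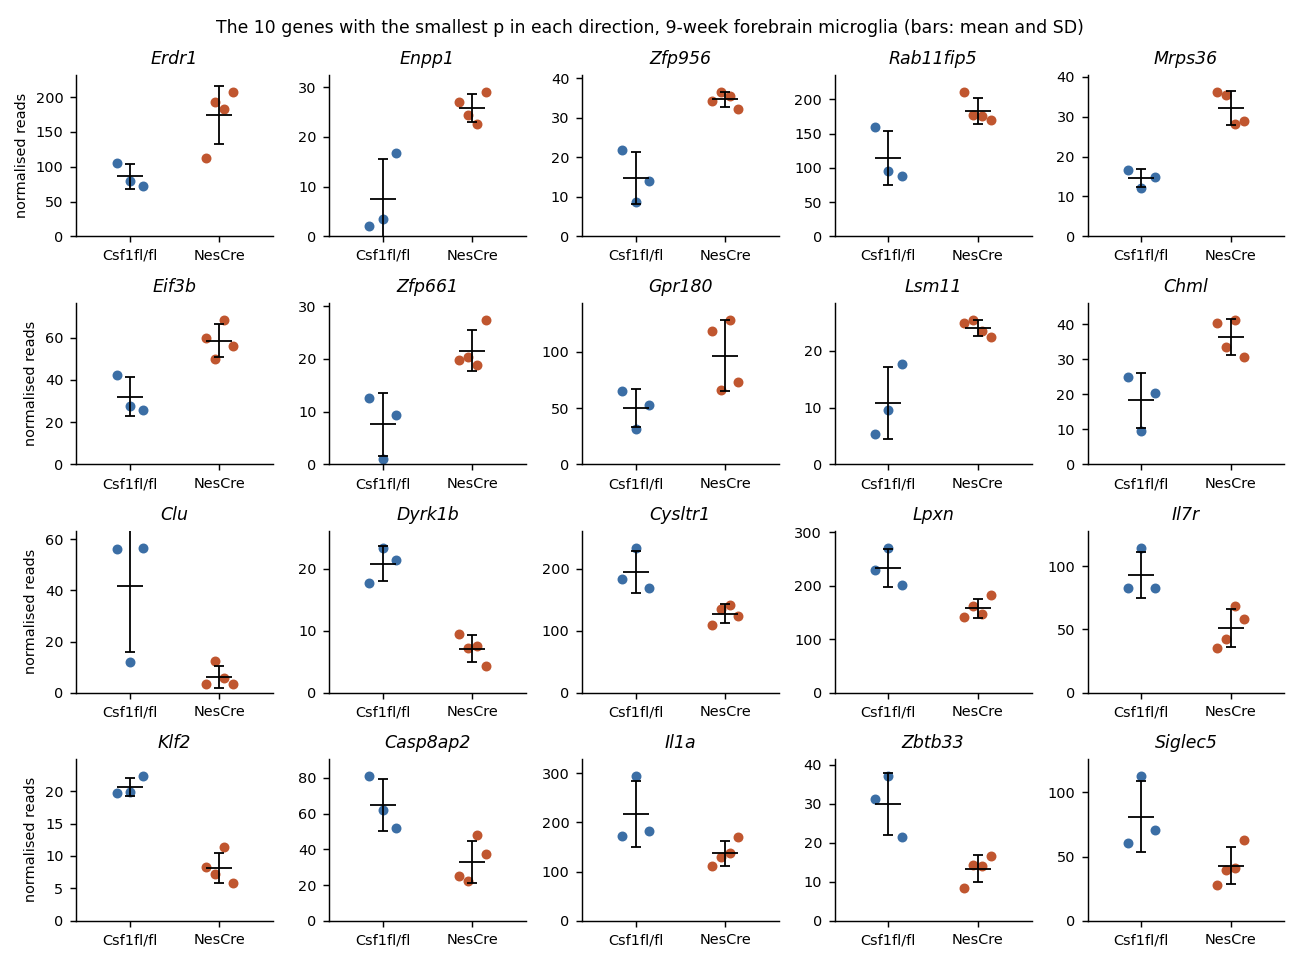
Normalised reads of the 10 genes with the smallest p and a higher mean in NesCre (upper 2 rows) and the 10 with a lower mean (lower 2 rows), with 1 point per library and bars for the mean and SD of 3 control and 4 NesCre libraries. The groups separate in 18 of the 20 genes, against 5.13% of all genes, and overlap in Clu, through control 2, and in Siglec5, through NesCre 4. The genes were chosen by p in these same libraries, so their separation is a description.

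Lysosomal genes leaned towards higher levels in mutants. Of 32 listed genes, 31 were in the table, 22 with a positive and 9 with a negative change. Limma called 0 of them. Their median log2 change was 0.10, against 0.00 over all genes. It ran from 0.06 without control 2 to 0.15 without NesCre 1. In 7 of the 31 (22.6%) every mutant lay above every control, against 2.53% of all genes, and in 0 every mutant lay below. These 7 were the proteases Ctsd, Ctsb and Ctsz, the hexosaminidase chain Hexa, the glycogen-degrading glucosidase Gaa, the proton pump subunit Atp6v1b2 and Grn, which encodes progranulin.

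Ctsd was at 21933, 22608 and 23886 in controls and at 27575, 26301, 25658 and 25814 in mutants. NesCre 1 was the highest and all 4 mutants cleared the highest control (0.21 ± 0.08 SE, 95% interval 0.03 to 0.38). Ctsb was at 5286, 5189 and 5442 in controls and 6150.3, 5839.8, 5916 and 6043 in mutants (0.17 ± 0.08 SE), with little spread in either group. Ctsz was at 2552, 2665 and 2977 in controls and 3296, 3387, 3138 and 3231 in mutants (0.26 ± 0.09 SE), and control 3 came closest to the mutants. Gaa was at 365, 243 and 355 in controls and 427, 379, 414 and 389 in mutants (0.35), and Grn at 3314, 3202 and 3554 in controls and 3823, 3587, 3595 and 3723 in mutants (0.13). Naglu, which degrades heparan sulfate, was at 430.2, 380.4 and 404 in controls and 549, 429, 573 and 533 in mutants (0.36 ± 0.12 SE). Only NesCre 2 lay within the control range, by a narrow margin. Not all proteases shared the direction: Ctss, at 7664, 10346 and 9372 in controls and 7028, 8424, 6975 and 9672 in mutants, had a log2 change of -0.19, with NesCre 1 and 3 below the controls and the other 2 mutants in their range. The adjusted p of all these genes was 0.988 (limma).

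The disease-associated set, genes that microglia raise around amyloid and in degeneration, shares Ctsd, Ctsb and Ctsz with the lysosomal list, so the lists are not separate evidence. Of 31 listed genes, 23 were in the table, 17 with a positive and 6 with a negative change, with 0 called. The median was 0.10 and ran from 0.03 without control 1 to 0.18 without NesCre 3. In 4 of the 23 (17.4%) all mutants were above all controls, against 2.53% of all genes, and 3 of the 4 are the cathepsins already counted among the lysosomal genes. The fourth was the tetraspanin Cd63, at 422, 377 and 485 in controls and 549, 576, 554 and 500.3 in mutants (0.35 ± 0.12 SE). The summed level of the 23 genes was 44294 to 48860 normalised reads in controls and 50432 to 54227 in mutants, and Ctsd had the highest level among them. Without Ctsd the other 22 summed to 22361 to 24974 in controls and 24774 to 26652 in mutants, and the groups overlapped. Apoe, which carries lipids between cells, was at 947, 1193 and 1158 in controls and 1701, 1125, 1516 and 1111 in mutants. NesCre 1 and 3 were above all controls and NesCre 2 and 4 within their range (0.29 ± 0.14 SE). The chemokine Ccl6 had a lower mean in mutants, at 257, 335 and 254 in controls and 194, 259.6, 209.7 and 239 in mutants (-0.32).

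In lipid transport and efflux, 10 of 16 measured genes (of 21 listed) had a positive change, with a median of 0.09 (0.03 to 0.11 over single libraries left out, the lowest without control 1) and 0 calls. The cholesterol exporter Abcg1 was at 777, 825 and 678 in controls and 868, 890.3, 868 and 998 in mutants, all above the controls (0.26 ± 0.11 SE). Cholesterol synthesis genes were split 7 to 7 among 14 measured of 18 (median -0.05; -0.14 to 0.06). Fdps, of the isoprenoid branch of that pathway, was at 33.3, 41.3 and 42.7 in controls and 25.9, 25.4, 28.2 and 24.9 in mutants (-0.56), without overlap. Complement genes numbered 8 of 14 in the table, 5 positive and 3 negative (median 0.06; 0.02 to 0.11). The components C1qa, C1qb and C1qc had log2 changes of -0.02, 0.09 and 0.04, and the anaphylatoxin receptor C3ar1 was higher in every mutant, at 583, 628 and 605 in controls and 647, 683, 665 and 738 in mutants (0.17). Phagocytosis receptors stood at 10 positive and 11 negative of 21 measured (24 listed; median 0.00; -0.02 to 0.00), with Mertk at -0.03.

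Of the inflammatory lists, the Toll-like receptor and interferon lists leaned lower with small medians. The antigen presentation and cytokine lists each had a median of -0.01. Of 30 listed Toll-like receptor and NF-kappaB genes, 29 were in the table, 10 positive and 19 negative (median -0.12; -0.18 to -0.08 over single libraries left out). In Casp1, the protease that matures interleukin-1β, all mutants were below the controls, at 90.3, 106 and 91.7 in controls and 53.8, 75.1, 84.3 and 83.6 in mutants (-0.38). Interferon-stimulated genes numbered 21 of 34 in the table, 6 positive and 15 negative (median -0.15; -0.21 to -0.06). The regulator Irf7 was at 17.7, 13.8 and 23.2 in controls and 11.5, 13.3, 13.2 and 10.8 in mutants, close to the lower limit of the table. Antigen presentation genes were 6 positive and 10 negative of 16 measured (24 listed; median -0.01; -0.07 to 0.03). Cd74, the invariant chain of class II complexes, was at 40.5, 37.9 and 40.8 in controls and 10.4, 17.3, 42.2 and 41.4 in mutants, so that NesCre 1 and 2 were low and NesCre 3 and 4 at the control level.

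Cytokines, chemokines and their receptors were in the table for 29 of 35, 13 positive and 16 negative (median -0.01; -0.06 to 0.00), with 0 called. Besides Il1a, the cytokine Il6 was lower in every mutant, at 16.7, 18.1 and 17.7 in controls and 12.5, 9.22, 6.65 and 14.98 in mutants (-0.70), all at under 20 normalised reads. Il6 entered the table through the controls only. The fractalkine receptor Cx3cr1 was at 7227, 9874 and 7413 in controls and 6002, 7998, 7148 and 7789.7 in mutants, with NesCre 1 and 3 below the controls and the other 2 in their range (-0.17).

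Immediate early and heat shock genes, which respond to tissue handling as well as to signals in the brain, numbered 25 of 28 in the table, 8 positive and 17 negative (median -0.06; -0.14 to -0.02). Klf2, described above, is also on this list and had the smallest p of its members. Jun was at 3674, 2930.0 and 3464 in controls and 2770.4, 2718, 3328 and 3073 in mutants, with overlap (-0.17). The inducible chaperone gene Hspa1a was at 94.4, 39.6 and 41.7 in controls and 38.3, 30.5, 25.4 and 41.4 in mutants (-0.68), with control 1 far above all other libraries. Its near-identical neighbour Hspa1b was at 38.4, 16.4 and 14.9 in controls and 15.6, 10.2, 4.78 and 10.8 in mutants, and reads of the pair may be split between them. Hspa1b entered the table through the controls only. Genes of transforming growth factor beta signalling were 6 positive and 7 negative of 13 measured (19 listed; median 0.00; -0.03 to 0.07). Nrros, which presents this factor on microglia, was higher in every mutant, at 536, 438 and 540.3 in controls and 554, 613, 623 and 559 in mutants (0.22).

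Metabolic and ribosomal genes had medians near 0. Oxidative phosphorylation genes were 25 positive and 17 negative of 42 measured (44 listed, median 0.06, -0.03 to 0.14). The groups separated in 0 of the 42 and in 5.13% of all genes. Glycolysis and hypoxia genes were 9 and 9 of 18 measured (22 listed; median 0.02; -0.05 to 0.07). The 77 cytosolic ribosomal protein genes were 37 positive and 40 negative (median -0.01; -0.09 to 0.05), and their sum reached its highest value in NesCre 2.

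**Figure D3:**
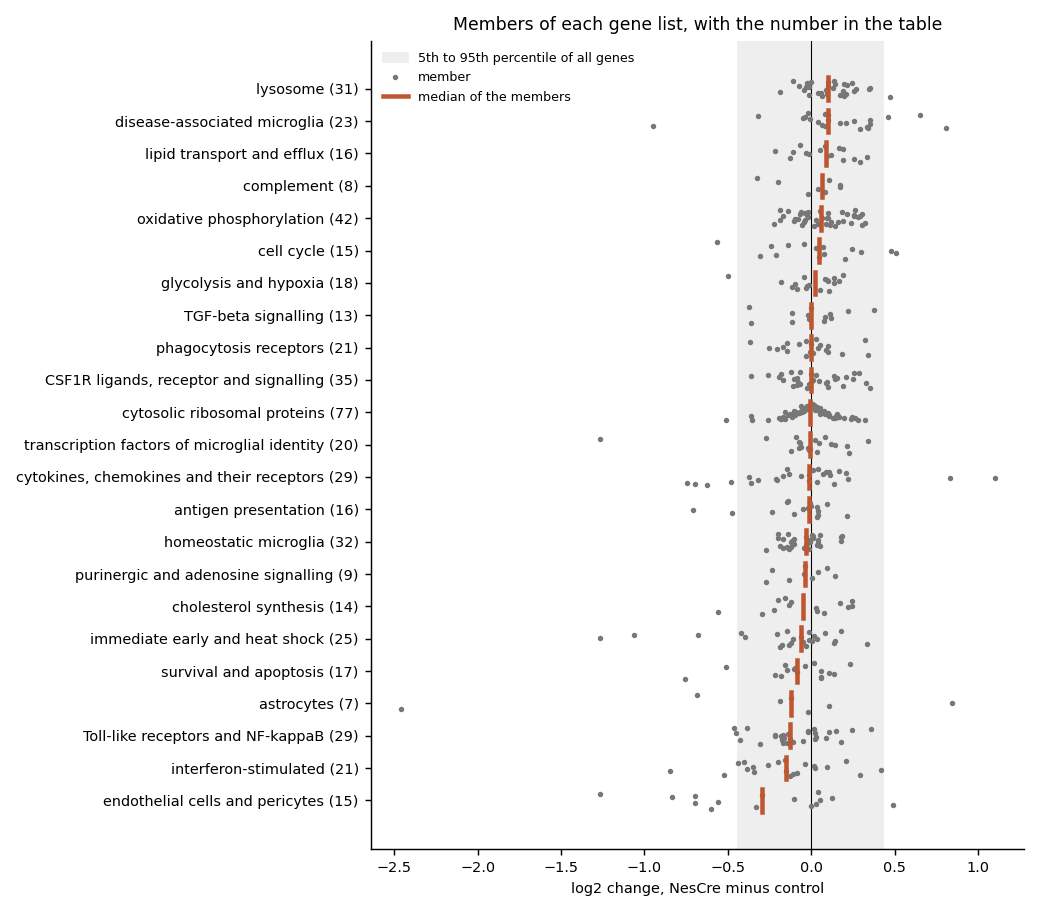
Log2 change (NesCre minus control) of every measured member of 23 gene lists with at least 5 members in the table (X-inactivation and Y-linked genes are not drawn), ordered by the median of the members (coloured bar), with the number measured in brackets and the 5th to 95th percentile of all genes shaded. Lysosomal and disease-associated genes have the highest medians at 0.10, and endothelial and pericyte markers the lowest at -0.29. Some endothelial and pericyte markers, such as Rgs5 and Kcnj8, entered the table through the controls only, so that median is a description.

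Of the markers of other brain and blood cells, most were not in the table or were low. Of 20 markers of endothelial cells and pericytes, 15 were in the table, 5 positive and 10 negative, with a median of -0.29 (-0.43 to -0.12 over single libraries left out, the ends being without control 2 and without NesCre 2) and 0 called. Without Sparc and Bsg, which microglia also express, the 13 others summed to 468 to 668 normalised reads in controls and 312 to 636 in mutants. The tight junction gene Cldn5 was at 41.6, 74.8 and 98.2 in controls and 70.4, 25.4, 88.99 and 23.3 in mutants, so that NesCre 2 and 4 were low and NesCre 1 and 3 in the control range. The pericyte gene Vtn was at 159, 93.7 and 151 in controls and 50.7, 61.9, 200.3 and 66.2 in mutants, with NesCre 3 the highest library of all. The pericyte gene Kcnj8 was also highest in NesCre 3, at 24.97, 15.6 and 19.5 in controls and 9.40, 5.17, 30.04 and 1.75 in mutants. Kcnj8 and the pericyte gene Rgs5 entered the table through the controls only. The median of the list is therefore not independent of how its genes were listed.

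Of 17 markers of border-associated macrophages 4 were in the table, and Cd163, Lyve1 and Pf4 were not. The mannose receptor Mrc1 was at 26.01, 38.7 and 52.8 in controls and 43.5, 73.1, 80.6 and 61.3 in mutants, with NesCre 1 inside the control range (0.73 ± 0.27 SE). Of 14 monocyte markers 2 were measured: Ccr2 at 2.17, 13.8 and 11.2 in controls and 16.6, 22.4, 12.3 and 17.5 in mutants, and Itga4 with a change of -0.05. Ccr2 entered the table through the NesCre group only, so its difference is not independent of its listing. Neutrophils had 2 of 14 markers in the table, lymphocytes 2 of 21, oligodendrocytes 4 of 19, neurons 1 of 18 and erythroid cells 0 of 7. For Il7r, which stands on the lymphocyte list, the T-cell genes Cd3d, Cd3e and Cd3g were not in the table, and the B-cell gene Cd79b was at 46.7, 79.9 and 53.8 in controls and 41.4, 56.9, 67.5 and 76.995 in mutants, with overlap.

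Differences among libraries of 1 genotype had a strong common axis. The median SD of log2 values within a genotype was 0.26 in controls and 0.25 in mutants. After removal of the genotype means, the first principal component of the 2997 genes with a mean of at least 100 held 48.9% of the variance and the second 16.0%. Control 2 had the highest score (0.65), followed by NesCre 2 (0.30) and NesCre 4 (0.27), and control 1 the lowest (-0.48). Of the 30 leading genes, 15 at each end, 21 had a mean under 200 normalised reads. Lamp1, a major protein of the lysosomal membrane, was at 2565, 408 and 2135 in controls and 2482, 1158, 2774 and 1357 in mutants. Rac1, a GTPase of the cytoskeleton, was at 1391, 350.4 and 1118 in controls and 1337, 419, 1405 and 676 in mutants. In both genes control 2, NesCre 2 and NesCre 4 were the lowest libraries, whichever their genotype. The sorting nexin Snx20 ranged widely, with 253, 19.8 and 204 in controls and 222, 36.6, 242 and 127 in mutants.

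At the other end of the axis stood Cd180, a Toll-like receptor homologue, at 116, 309 and 189 in controls and 91.03, 149, 108 and 210.1 in mutants, and the chemokine Ccl3, at 164, 266 and 281 in controls and 101, 173, 172 and 246 in mutants. Lamp1 was the gene at 1000 or more normalised reads whose interval was wider than 2-fold (-0.39 to 1.33 on the log2 scale). Across genes, the loading on this axis had a Spearman correlation of 0.00 with GC content, 0.04 with exon length and 0.04 with level, as a description. With the fitted genotype change it correlated at -0.39. Control 2, the library with the most extreme score, is 1 of the 3 controls.

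**Figure D4:**
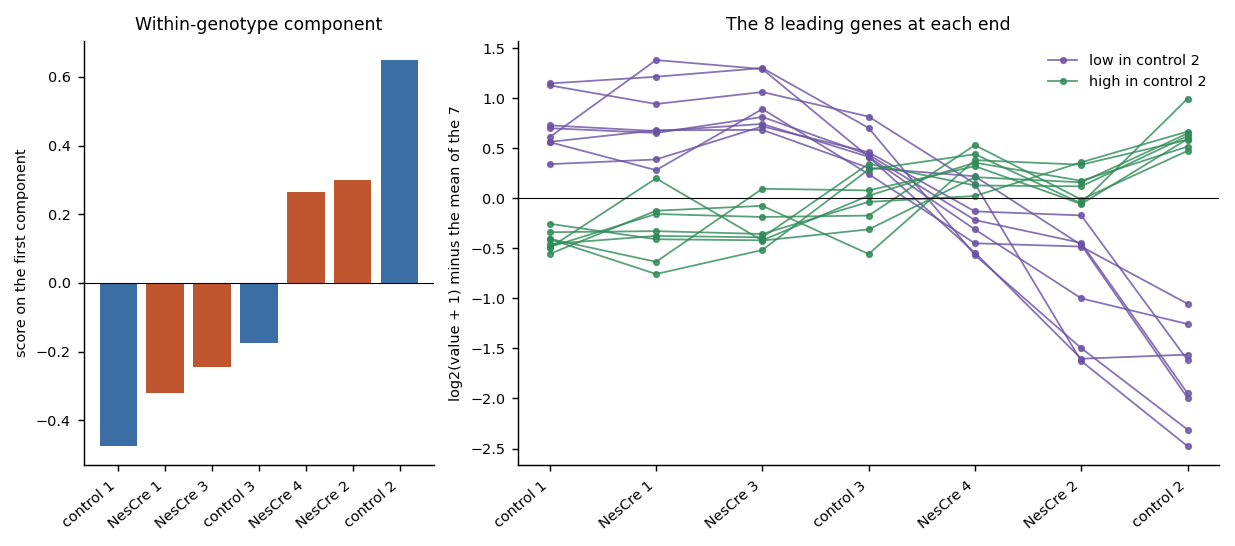
Left, score of each library on the first within-genotype component (blue control, red NesCre). Right, log2(value + 1) minus the mean of the 7 libraries for the 8 leading genes at each end, with libraries in order of score: the genes low in control 2 (0.65) are also low in NesCre 2 and NesCre 4, and control 1 (-0.48) stands at the opposite end.

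The effect of Csf1 loss in the 9-week forebrain was then set against 3 other mutant effects, each taken within its own table, and the difference of the effects was tested over the shared genes. Levels are not comparable across the tables, which may have been normalised separately. Against the 9-week cerebellum, the difference passed in 0 of 9156 genes (0.0%; 359, or 3.92%, at an unadjusted p under 0.05), with a smallest adjusted p of 0.999 (limma). Of the 20 genes above, 19 were in both tables and 11 had the same sign of change, against 51.04% of all genes. Klf2 had a lower mean in both regions. In the cerebellum it was at 64.5, 29.1 and 62.1 in controls and 17.5, 17.4 and 30.8 in mutants, with 1 mutant inside the control range (-1.17 ± 0.35 SE), and the difference between the regions was -0.09 ± 0.49 SE. Enpp1 was at 29.3, 17.5 and 32.5 in cerebellar controls and 17.5, 22.5 and 29.1 in mutants, with overlap (-0.17). The lysosomal median in the cerebellum was 0.09 and the disease-associated one 0.19, and the ribosomal protein median 0.23.

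Against the forebrain at P8, when microglia still multiply and mature, the difference passed in 0 of 8703 genes (0.0%; 426, or 4.89%, at an unadjusted p under 0.05). The smallest adjusted p was 0.385 (limma). That value belonged to Rcan1, an inhibitor of the phosphatase calcineurin, with changes of 0.46 at 9 weeks and -1.37 at P8. Enpp1 and Cysltr1 followed with an adjusted p of 0.444 each (limma). At P8 Enpp1 was at 41.1, 33.3 and 38.6 in controls and 9.68, 41.6 and 17.6 in mutants (-0.92 ± 0.40 SE), opposite in sign to the adult. Cysltr1 at P8 was at 46.1, 63.7 and 47.4 in controls and 68.7, 103 and 74.9 in mutants (0.63 ± 0.25 SE), again opposite. At P8, Rcan1 and Enpp1 were above 10 in every control but not in every mutant. Enpp1 had also entered the adult table through the NesCre group only. The differences of Rcan1 and Enpp1 are therefore given as a description. The same sign was found in 8 of the 15 shared genes of the 20, against 50.7% of all genes. The lysosomal median at P8 was -0.12 and the disease-associated one -0.22, where the adult values were 0.10 and 0.10; these medians were not tested against each other.

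Against loss of the other ligand, IL-34, in the same region and at the same age, the difference passed in 1 of 8227 genes (0.0122%; 561, or 6.82%, at an unadjusted p under 0.05). That gene was Itm2a, a membrane protein gene that vessels also express. With Il34 disrupted, Itm2a was at 1.47, 1.98 and 1.97 in controls and 36.5, 16.5 and 66.7 in mutants (3.66 ± 0.46 SE). In the Csf1 comparison it was at 52.96, 48.2 and 77.8 in controls and 66.2, 32.5, 58.1 and 12.5 in mutants, and the groups overlapped. Itm2a entered the Il34 table through the LacZ libraries only, so it was listed because it was high in them, and the test of the difference is not independent of that. Its log2 change in the Csf1 comparison was -0.70, and the difference was -4.36 ± 0.64 SE (adjusted p = 0.00141, limma). Of the 20 endothelial and pericyte markers, 6 were in the Il34 table. Without Sparc and Bsg the other 4, Itm2a among them, summed to 50.8 to 71.6 normalised reads in Il34 controls and 99.5 to 231 in mutants, and their part in the result was not tested. With a pseudocount of 10 in place of 1 the difference was -2.48 with an adjusted p of 0.0566 (limma).

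The 20 genes behaved variously under Il34 loss, with the same sign in 7 of the 14 in both tables, against 4113 of 8227 genes in all. Il7r was at 48.1, 75.5 and 54.2 in Il34 controls and 26.1, 27.05 and 19.4 in mutants (-1.25 ± 0.28 SE), without overlap, as under Csf1 loss. Rab11fip5 was at 60.4, 44.4 and 64.5 in controls and 82.2, 80.9 and 114 in mutants (0.70 ± 0.22 SE), also without overlap and in the same direction. Il1a, by contrast, was at 125, 89.6 and 133 in controls and 141, 153 and 128 in mutants (0.30). None of these 3 genes passed the test in either comparison. The homeostatic list had 2 positive changes of 32 under Il34 loss, with a median of -0.21, against 11 of 32 and -0.03 under Csf1 loss. The disease-associated medians were 0.31 and 0.10, and the lysosomal ones -0.01 and 0.10.

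**Figure D5:**
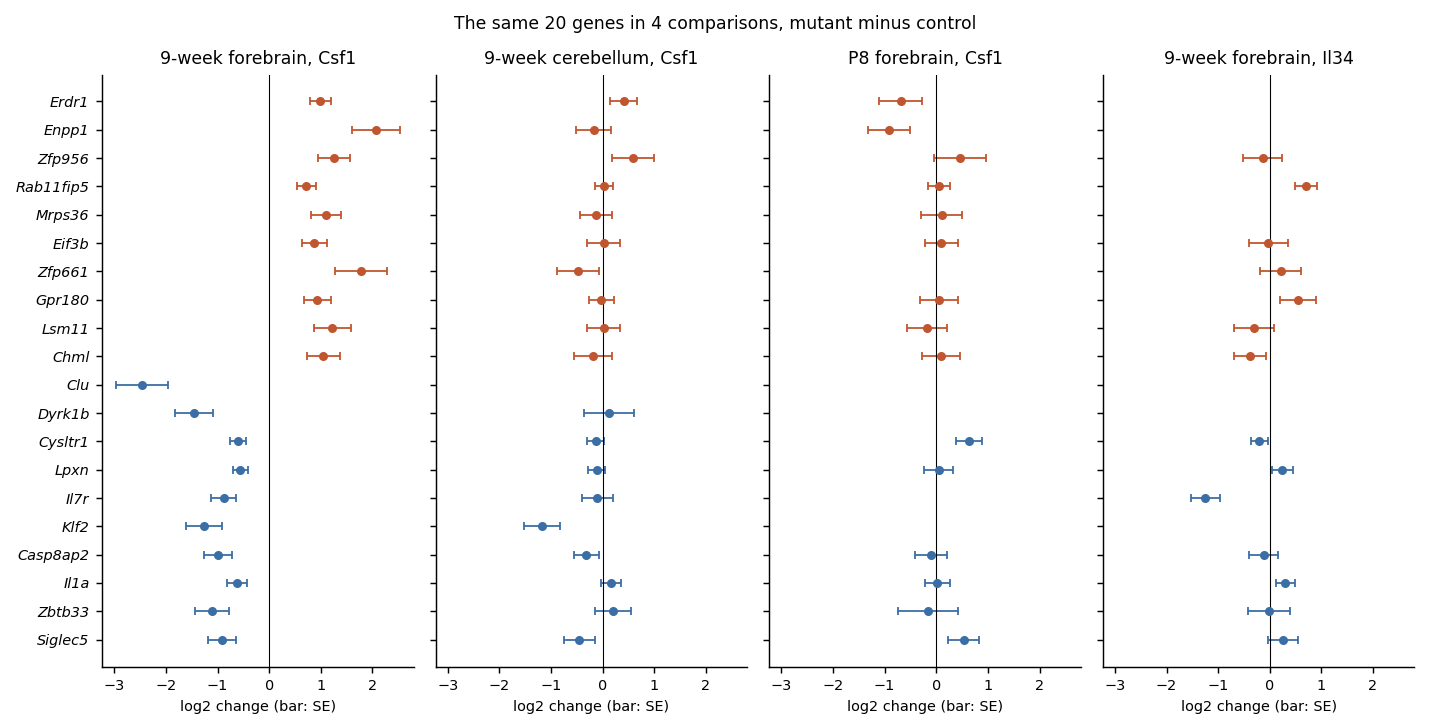
Log2 change, mutant minus control, with SE bars, of the 20 genes with the smallest p in the 9-week forebrain Csf1 comparison (first panel) and of the same genes in the other 3 comparisons where measured. The genes were chosen by the first panel, so their separation there is a description, and of those measured 11 of 19, 8 of 15 and 7 of 14 keep the sign in the other panels.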

How the data were processed

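The submitters' processing notes name the aligner STAR 2.5.3, the mouse build mm10 and the counter featureCounts; strand setting, annotation release and normalization were not stated in these sources. Values are, as deposited by the authors, a signal per gene. In each library 100% of them are whole reads (tolerance 0.01 reads) over a library factor, plus 0.1. The 9-week tables hold genes above 10 in every library of 1 or both groups, so genes below that in both cannot appear; at P8, 8499 of the 9612 forebrain genes meet this. In the adult forebrain, 16 gene names had become dates, and 0 mitochondrial genes were listed.

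From these values, limma 3.58.1 (trend, R 4.3.3) was fitted to log2(value + 1) for the 2 forebrain groups, p-values being adjusted by Benjamini-Hochberg across the table, and to 4 groups at a time for the differences between effects, over genes in both tables. Errors are SE, and p-values cover only the spread between these samples. Genes were named by smallest p (10 in each direction with a mean of at least 20 in 1 or both groups, without predicted and ribosomal protein genes), and per list by level and p; members with no overlap between groups, the genes of the component and a few list members were added after their values were seen; some genes the rule names are not reported here. The members and the 31 gene lists were chosen with earlier results of these data known. Positions and exon lengths are from GENCODE vM21, in which 8994 symbols (95.4%) were found; Erdr1 and Siglec5 were not. The fit was tested on simulated data. Alternatives were quantile and TMM scaling, voom with sample quality weights on reads recovered from the values ((value - 0.1) times the library factor), median-of-ratios scaling (chosen after seeing the data), pseudocounts of 0.1 and 10, a minimum mean of 50, a replicate block and leaving out each library.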

Additional observations from a re-analysis of the deposited data

Results flagged for a closer look

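Of 53 groups of 4 mutant libraries checked for a library far from the others, 3 were picked out, and chance picks out about 1 in 20. Rab11fip5 was at 210.9 normalised reads in NesCre 1, above the other 3 mutants. The summed cytosolic ribosomal protein genes were at 29450 in NesCre 2, above the other 3. The summed X-inactivation and Y-linked genes were at 389.9 in NesCre 4. The difference between the effects of Csf1 and Il34 loss passed its test in Itm2a (-4.36 on the log2 scale, Csf1 minus Il34), a gene that entered the Il34 table through the LacZ libraries only, so the test is not independent of how the genes were listed.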

How the results depend on the processing

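The count of 0 called genes held under quantile, TMM and median-of-ratios scaling, voom with sample quality weights on recovered reads (smallest adjusted p 0.0572, Clu; 383 genes at an unadjusted p under 0.05), pseudocounts of 0.1 and 10 and a minimum mean of 50; leaving out 1 library gave 0 to 1. Deviations of same-numbered control and NesCre libraries correlated at 0.18, 0.16 and 0.04, and those of differently numbered ones at -0.18 to 0.15. Each control correlated highest with the mutant of its own number, by a narrow margin for controls 2 and 3. The labels do not say whether same-numbered libraries are pairs, and this was not tested. With a replicate block limma called 14 genes (6 higher, 8 lower), 7 of them list members. NesCre 4 has no control of its number, so it adds nothing to the changes fitted with the block. The change of Erdr1, for example, was 0.897 with the block and 0.897 without NesCre 4. Without control 2 and with no block, limma called 1 list member (0 to 1 over the libraries left out). The 14 include Erdr1, Enpp1, Clu, Rab11fip5, Gpr180, Il1a, Lpxn and Siglec5. The block gave 1 called difference against the cerebellum (2 with a replicate block across regions), 2 against P8 and 13 against Il34. Leaving out 1 library gave 0 to 1 against P8. The gene was Enpp1 (3.73 without control 3), listed in the adult through the NesCre group only, so that call is a description. Against Il34, leaving out 1 library gave 1 to 9 (9 without Il34 control 3, 4 without control 1). Voom called 3 against Il34, Itm2a among them. For the Il34 comparison, 0 were called at a minimum mean of 50 and at a pseudocount of 10. At a minimum mean of 50, which leaves out 3951 of the 9424 genes, 5365 genes had an interval within 2-fold. Over single libraries left out, the change of Csf1r ran from -0.055 to 0.0017, and was 0.0013 without NesCre 3. The cause of these shifts was not tested. Median-of-ratios scaling was chosen after seeing the data. The planned edgeR and DESeq2 tests on recovered reads were not run. With a minimum mean of 50 the cell cycle median was 0.20, from Cdk4, Mcm3 and Pcna only, and the glycolysis and hypoxia median 0.09.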
